A study of Mus musculus with 12 samples.

Results

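The Notch pathway was described through 10 genes of palatal epithelium, chosen by name from the deposited count table. They are the receptors Notch1, Notch2 and Notch3, the ligands Jag1, Jag2 and Dll1, the DNA-binding factor Rbpj, the effectors Hes1 and Hey1, and the receptor inhibitor Numb. All 10 were among the 23420 genes of the table, and all 10 passed the filter on low counts, as did 11719 genes in all. The table held 12 libraries from 6 FVB mice, each of which gave a GFP-HI and a GFP-LO library of CD49f-positive cells sorted from the epithelium of the hard palate (rugae 1-8). Every mouse was K5-tTA (+/-); tetO-H2B-GFP (+/-), so the keratin 5 promoter set which cells could make the green histone, and every mouse had a doxycycline chase of 14 days, during which new label is not made and division dilutes the old. GFP-HI cells are therefore described by the submitters as infrequently dividing and GFP-LO cells as frequently dividing. Mice B1M, B3M, B4M, B5M and B7M were 49 days old and mouse B7F was 71 days old. No mice without the transgenes or without the chase were analysed here, and both fractions share the transgenes, the drug and the CD49f gate.

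Notch signalling passes between touching cells: a Jagged or Delta-like ligand on 1 cell binds a Notch receptor on its neighbour, and proteases then release the receptor's intracellular domain. That domain enters the nucleus, joins the DNA-binding protein RBPJ and a Mastermind coactivator, and switches on repressors of the HES and HEY families. In mouse skin, Notch is known for promoting the departure of keratinocytes from the basal layer and their differentiation, while Numb, which recruits endocytic and ubiquitin-ligase partners, lowers receptor activity.

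RNA came from 200 to 1000 sorted cells per library, and total counts ran from 6678444 to 10547665. The ribosomal RNA gene Rn45s took 31.5% to 59.8% of them, and the other genes shared 4030757 to 6419834 counts. Fewest genes were detected in the GFP-HI library of mouse B1M, 12312, and in that of mouse B3M, 12810, against 13101 to 19023 in the other 10 libraries. Levels are given as CPM, the usual read count scaled to library size, here with trimmed-mean-of-M-values (TMM) factors, and 3 counts, the limit that a count of 0 allows, equal 0.258 to 0.433 CPM depending on the library, for counting error only. In sorted pools such as these, fewer cells expressing a gene and less of its RNA per cell cannot be told apart. The mice are separate animals, and the mouse was a block in the fit.

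The sorted cells carried the markers of basal keratinocytes in both fractions. The 7 basal markers summed to 14363 to 23047 CPM in GFP-HI and 16858 to 23820 CPM in GFP-LO libraries, were higher in the GFP-HI library of 1 of 6 mice, and 0 of the 7 passed the test. Krt5, a keratin of the basal layer, averaged 5194 ± 698 CPM in GFP-HI cells and 5827 ± 915 CPM in GFP-LO cells (SD, n = 6 each). Krt14, Trp63, Itga6, Itgb4 and Col17a1 were also lower on average in GFP-HI cells. Krt15 lay the other way, at 559 ± 131 CPM in GFP-HI cells and 467 ± 177 CPM in GFP-LO cells, with a log2 fold change of 0.32. The suprabasal list summed to 819 to 2200 CPM in GFP-HI and 769 to 1741 CPM in GFP-LO libraries, was higher in the GFP-HI library of 5 of 6 mice, and had 0 of 8 tested genes past the threshold. Krt10 and Krt13, keratins of the layers above the basal one, averaged 142 ± 136 and 670 ± 436 CPM in GFP-HI, against 65.7 ± 54.7 and 458 ± 259 CPM in GFP-LO cells (SD, n = 6 each). Others of the list lay the other way or level: Krt4 averaged 7.82 ± 9.23 CPM in GFP-HI cells and 25.0 ± 49.01 CPM in GFP-LO cells, Krt1 2.29 CPM in GFP-HI cells and 2.51 CPM in GFP-LO cells, and Krtdap had a log2 fold change of -0.04. The fibroblast list was lower in the GFP-HI library of 6 of 6 mice, 292 to 511 CPM against 391 to 644 CPM in GFP-LO, nearly all of it Dcn, the 1 gene of 4 tested that fell. Of the other tested genes, Col1a1 averaged 2.88 CPM in GFP-HI cells and 0.878 CPM in GFP-LO cells, Col1a2 2.60 CPM in GFP-HI cells and 0.852 CPM in GFP-LO cells, and Fbln1 32.8 CPM in GFP-HI cells and 32.4 CPM in GFP-LO cells; Col3a1, Lum and Pdgfra had at most 10 counts in any library. Endothelial genes summed to 0.368 to 5.92 CPM in GFP-HI and 0 to 2.93 CPM in GFP-LO libraries, higher in GFP-HI in 6 of 6 mice. In mice B1M and B3M the sums rested on few counts, at 0.368 and 0.656 CPM in GFP-HI, against 0 and 0.430 CPM in GFP-LO. Emcn was at 0 in all 12 libraries, and Cdh5, Kdr and Tie1 had at most 10 counts. The sums in GFP-HI and GFP-LO libraries were 79.9 to 131 and 85.8 to 129 CPM for mural genes (higher in GFP-HI in 4 of 6 mice), 0.246 to 22.4 and 0.251 to 30.5 CPM for immune genes (1 of 6), 21.7 to 37.1 and 13.2 to 31.3 CPM for Merkel cell genes (5 of 6), 1.72 to 9.08 and 3.77 to 8.14 CPM for melanocyte genes (3 of 6), and 3.41 to 14.0 and 10.3 to 15.4 CPM for Schwann cell genes (1 of 6), with 0 tested genes past the threshold in any of these lists.

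None of the 10 Notch genes passed the test between the fractions. By edgeR's quasi-likelihood test with mouse as a block, 0 of 10 had an adjusted p under 0.05 in either direction, where 0.469% of all tested genes were called higher in GFP-HI and 0.0597% were called lower. Of the 10 log2 fold changes, GFP-HI over GFP-LO, 6 were above 0 and 4 below, where 46.9% of all tested genes were above 0. Their median was 0.01, against -0.02 over all 11719 genes. Jag1 was the 1 gene of 10 (10%) with an unadjusted p under 0.05, a mark that 7.24% of all tested genes reached. The ranges of the GFP-HI and GFP-LO libraries overlapped for 10 of 10 genes. The share of all tested genes whose ranges overlap was not counted, so the overlap cannot be read as a trait of these genes. With limits chosen after the values were seen, 8 of 10 log2 fold changes lay within 0.2 of 0, as did 56.8% of all tested genes, and 8 of 10 had a 95% interval inside 0.5 on either side of 0, as did 34.9% of all tested genes. Hey1 and Rbpj were the exceptions to both limits. The median SE over all tested genes was 0.208, against 0.073 (Hes1) to 0.183 (Rbpj) for the genes other than Hey1, at 0.689. The tested genes were not matched to the 10 by level or SE, so these shares cannot be read as a trait of the Notch genes. Positions of the genes are those of the deposited table (GRCm38), and the exons of 0 of the 10 overlap another gene of the table.

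**Figure D1:**
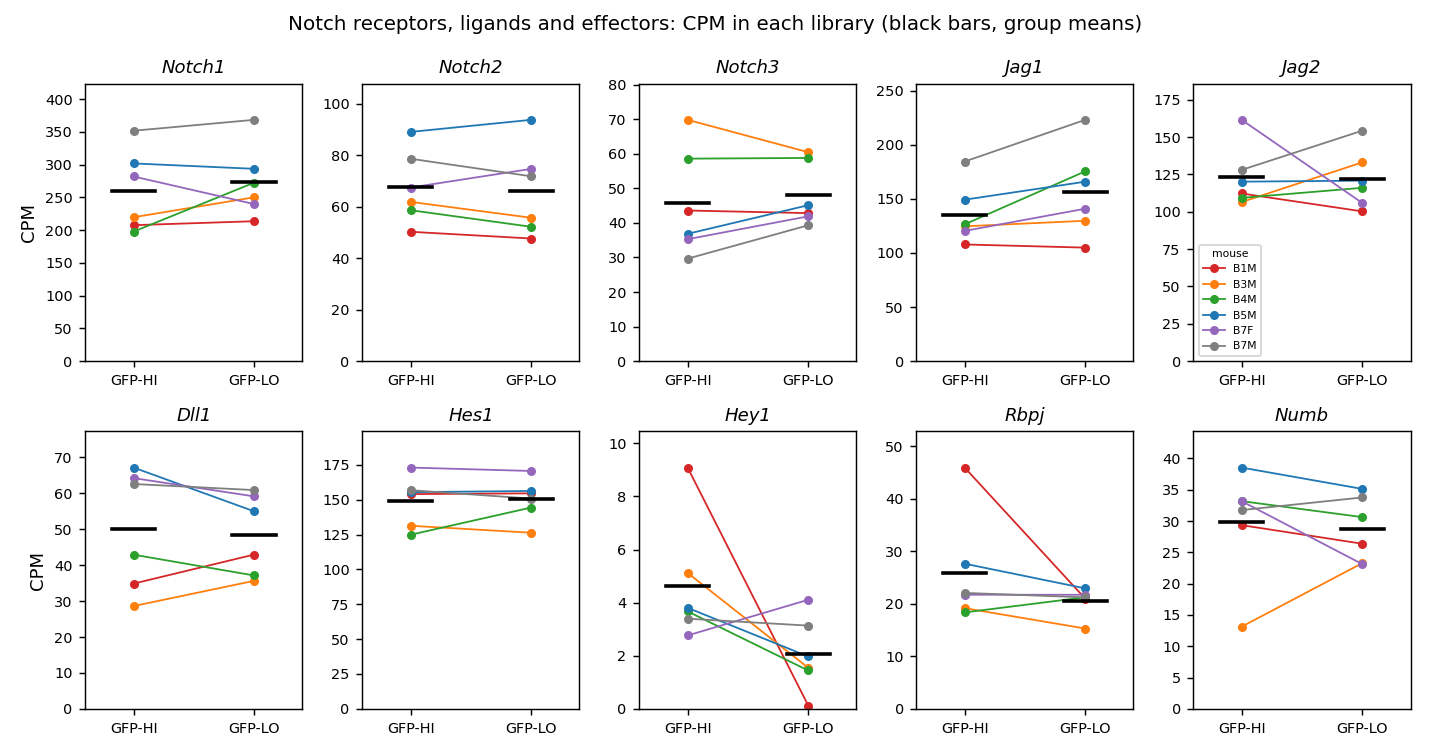
Level of each of the 10 Notch genes in TMM-normalised CPM on linear axes from 0 that differ between panels, with GFP-HI libraries left and GFP-LO libraries right, a coloured line joining the 2 libraries of each of 6 mice and black bars at the group means. The points of the fractions overlap in every panel, and the largest fold between paired libraries is that of Hey1 in mouse B1M, 9.09 CPM in GFP-HI cells and 0.126 CPM in GFP-LO.

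Per length, Notch1 was the highest of the receptors, and Notch2 and Notch3 lay close together. Notch1 (chr2:26457902-26503822, minus strand), the receptor best studied in mouse epidermis, ran from 198 through a median of 251 to 352 CPM in GFP-HI libraries, against 214, 261 and 368 CPM in GFP-LO libraries. Both fractions of mouse B7M were highest, and in 4 of 6 mice the GFP-HI library was the lower of the pair. Its log2 fold change was -0.08 ± 0.09 (SE, 95% interval -0.26 to 0.10), with an adjusted p of 0.865 by edgeR.

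Notch2 (chr3:98013538-98150367, plus strand), a second transmembrane receptor of the family, had a lowest level of 50.2, a median of 64.6 and a highest level of 89.0 CPM in GFP-HI libraries, against 47.6, 63.7 and 93.7 CPM in GFP-LO libraries. Mouse B1M was lowest and mouse B5M highest in both fractions, and the GFP-HI library was the higher in 4 of 6 mice. Its log2 fold change was 0.05 ± 0.09 (95% interval -0.15 to 0.25), with an adjusted p of 0.933 by edgeR.

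Notch3 (chr17:32120893-32166852, minus strand), known chiefly from vascular mural cells, spanned 29.7 to 69.8 CPM around a median of 40.2 CPM in GFP-HI libraries, and 39.3 to 60.5 CPM around 44.0 CPM in GFP-LO libraries. Mouse B3M was highest and mouse B7M lowest in both fractions, and the GFP-HI library was the lower of the pair in 4 of 6 mice. Its log2 fold change was -0.12 ± 0.12 (95% interval -0.37 to 0.14), with an adjusted p of 0.861 by edgeR. The mural marker list summed to 79.9 to 131 CPM in GFP-HI and 85.8 to 129 CPM in GFP-LO libraries, most of it Cspg4, at 99.0 ± 15.1 CPM in GFP-HI cells and 92.1 ± 13.9 CPM in GFP-LO cells (SD, n = 6 each). Mcam averaged 8.93 CPM in GFP-HI cells and 10.7 CPM in GFP-LO cells, while Rgs5 and Myh11 had at most 10 counts in any library. Pdgfrb, with at most 12 counts, averaged 0.447 CPM in GFP-HI cells and 0.156 CPM in GFP-LO cells. Acta2 averaged 2.73 CPM in GFP-HI cells and 0.987 CPM in GFP-LO cells, and Tagln 0.995 CPM in GFP-HI cells and 1.94 CPM in GFP-LO cells. The part of mural cells in the Notch3 level was not tested.

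Per kilobase of exon, Notch1 made up most of the signal of these 3 receptors. Its share was 68.6 ± 6.27% in GFP-HI, against 69.7 ± 3.63% in GFP-LO libraries (SD, n = 6 each). Notch2 accounted for 16.2 ± 1.41% in GFP-HI, against 15.3 ± 3.15% in GFP-LO, and Notch3 for 15.2 ± 6.48% in GFP-HI, against 15.1 ± 3.62% in GFP-LO libraries. The log2 ratio of Notch2 to Notch1 per length was -2.08 ± 0.18 in GFP-HI, against -2.21 ± 0.33 in GFP-LO, and it was higher in GFP-HI in 4 of 6 mice. For Notch3 to Notch1 it was -2.29 ± 0.77 in GFP-HI, against -2.25 ± 0.42 in GFP-LO, higher in GFP-HI in 3 of 6 mice. Notch4, the receptor of endothelial cells, averaged 1.47 ± 0.434 CPM in GFP-HI cells and 0.990 ± 0.650 CPM in GFP-LO cells, with at most 20 counts in a library and an adjusted p of 0.846 by edgeR.

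Among the ligands, Jag1 (chr2:137081451-137116520, minus strand) gave the smallest p of the 10 genes. It encodes a Jagged ligand that binds Notch receptors on neighbouring cells. In mice B1M, B3M, B4M, B5M, B7F and B7M, taken in that order, the GFP-HI libraries held 108, 125, 126, 149, 120 and 184 CPM, against 105, 130, 175, 166, 141 and 223 CPM in the GFP-LO libraries. The GFP-HI library was lower in 5 of 6 mice, with B1M the exception, but the spread between mice was wide enough for the fractions to overlap. Within mice, the log2 differences ran from -0.47 in B4M to 0.04 in B1M. The fitted log2 fold change was -0.19 ± 0.08 (95% interval -0.37 to -0.01), with a p of 0.0363 before and 0.656 after adjustment over all genes in edgeR. An exact two-sided sign-flip test over the 6 mice gave p = 0.0625, where the smallest value that 6 mice allow is 0.03125. Mice B1M and B3M had the highest within-mouse differences of the 6, 0.04 and -0.06, so leaving them out lowers the estimate by itself. Without them the log2 fold change was -0.28, with an unadjusted p of 0.00629 and an adjusted p of 0.215 in edgeR. Without B4M it was -0.14, with an unadjusted p of 0.118 in edgeR. The unadjusted p was also above 0.05 without B5M (0.0652), B7F (0.0710) or B7M (0.111), with DESeq2 (0.0533) and without the mouse block (0.242). Over the 14 alternative settings the smallest adjusted p of any of the 10 genes ran from 0.215 to 0.999.

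Jag2 (chr12:112908590-112929495, minus strand), the other Jagged ligand, ran from 106 through 116 to 162 CPM in GFP-HI libraries, against 100, 118 and 154 CPM in GFP-LO libraries. The GFP-HI library of mouse B7F was the highest of the 12, and the GFP-HI library was the higher of the pair in 2 of 6 mice. The log2 fold change was 0.01 ± 0.11 (95% interval -0.23 to 0.26), with an adjusted p of 0.988 by edgeR. Set against Jag1 per length, Jag2 had a log2 ratio of 0.31 ± 0.33 in GFP-HI, against 0.10 ± 0.26 in GFP-LO (SD, n = 6 each). The within-mouse difference of that ratio was 0.21 ± 0.37, above 0 in 5 of 6 mice and running from -0.26 in B3M to 0.84 in B7F.

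Dll1 (chr17:15367354-15375823, minus strand), a Delta-like ligand, spanned 28.6 to 67.2 CPM around a median of 52.8 CPM in GFP-HI libraries, and 35.7 to 60.9 CPM around 48.98 CPM in GFP-LO libraries. Both fractions of B5M, B7F and B7M were above both fractions of B1M, B3M and B4M. The log2 fold change was 0.01 ± 0.12 (95% interval -0.25 to 0.27), with an adjusted p of 0.988 by edgeR.

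Rbpj (chr5:53555779-53657445, plus strand), which tethers the released receptor domain to DNA, was measured at 45.9, 19.2, 18.4, 27.6, 21.7 and 22.1 CPM in GFP-HI libraries, with the mice in the same order as for Jag1. The GFP-LO libraries held 21.0, 15.3, 21.2, 22.9, 21.7 and 21.2 CPM. The GFP-HI library of B1M stood above the other 11, and without that mouse the fractions lay close together. The log2 fold change was 0.26 ± 0.18 (95% interval -0.13 to 0.66), with an adjusted p of 0.799 by edgeR. Leaving out B1M brought it to 0.09, and leaving out both B1M and B3M to 0.03. In B1M alone the CPM ratio of GFP-HI to GFP-LO was 2.19 from 374 and 167 counts (exact 95% interval 1.82 to 2.64, counting error only). How reads that match several loci were handled is not given in the sources used here, so the Rbpj count is uncertain where processed copies of the gene share its sequence.

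RBPJ binds a core written TGGGAA, and the 250 bases before annotated starts were searched for these letters and their reverse complement TTCCCA in RefSeq's GRCm38.p6 promoters. Of 32851 windows, 7094 (21.6%) held at least 1 match and 2.77% held 2 or more. Windows existed for 8 of the 10 genes; Hes1 and Hey1 were not among them. Of the 12 windows of those 8 genes, 2 held a match, and both belong to Rbpj, which has several annotated starts on the plus strand of chromosome 5. The 2 distinct matches are shown with their flanks on the plus strand, 5′ to 3′, because they are the letters that Rbpj's own protein is known to bind; capitals mark the match.
Rbpj chr5:53590185-53590214: aatgaaaaaggcTGGGAAcccgcggcgagc
Rbpj chr5:53590269-53590298: gacgctcgcattTTCCCAggacccctcctc
The first stretch ends at the base before an exon that the deposited table places at 53590215 to 53590486, and the second lies inside that exon. The match is a description of letters, not a binding site, and the absence of these letters from a window says nothing about the factor.

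Hes1 and Hey1, both repressors of the basic helix-loop-helix type and both common readouts of Notch activity, were the highest and the lowest of the 10 genes in level per length. Hes1 (chr16:30065357-30067796, plus strand) was measured at 125 to 173 CPM around a median of 155 CPM in GFP-HI libraries, and at 126 to 171 CPM around 153 CPM in GFP-LO libraries. The fractions nearly coincided, and the GFP-HI library was the higher in 3 of 6 mice. Its log2 fold change was -0.01 ± 0.07 (95% interval -0.17 to 0.14), with an adjusted p of 0.978 by edgeR. That interval was the narrowest of the 10.

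Hey1 (chr3:8663359-8667038, minus strand) had the largest fold change of the 10 and also the widest interval. In mice B1M, B3M, B4M, B5M, B7F and B7M, again in that order, the GFP-HI libraries held 9.09, 5.12, 3.67, 3.80, 2.76 and 3.4 CPM, from 74, 39, 26, 38, 21 and 34 counts. The GFP-LO libraries held 0.126, 1.55, 1.44, 1.97, 4.11 and 3.14 CPM, from 1, 18, 10, 16, 35 and 26 counts. The GFP-HI library was the higher in 5 of 6 mice, and B7F, the mouse of 71 days, was the exception. The overlap between the fractions came from the GFP-LO libraries of B7F and B7M. The fitted log2 fold change was 1.25 ± 0.69 (95% interval -0.24 to 2.74), a fold of 2.38 (0.848 to 6.66), with a p of 0.0928 before and 0.749 after adjustment in edgeR. The exact two-sided sign-flip test over the 6 mice gave p = 0.09375.

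Mouse B1M carried much of the Hey1 value. Its CPM ratio of GFP-HI to GFP-LO was 72.3, resting on 1 count in GFP-LO (exact 95% interval 12.6 to 2895, counting error only), and without B1M the log2 fold change was 0.69, with an edgeR p of 0.150 before adjustment. Without B1M and B3M it was 0.41. Relative to Hes1 per length, the log2 ratio of Hey1 was -5.72 ± 0.66 in GFP-HI, against -7.36 ± 1.79 in GFP-LO (SD, n = 6 each), higher in GFP-HI in 5 of 6 mice. Hey1 is also expressed by endothelial cells, whose markers were higher in GFP-HI in 6 of 6 mice; in the B1M GFP-HI library, where Hey1 was highest, they summed to 0.368 CPM, the lowest sum of the 6 GFP-HI libraries. The part of these markers in the Hey1 difference was not tested.

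**Figure D2:**
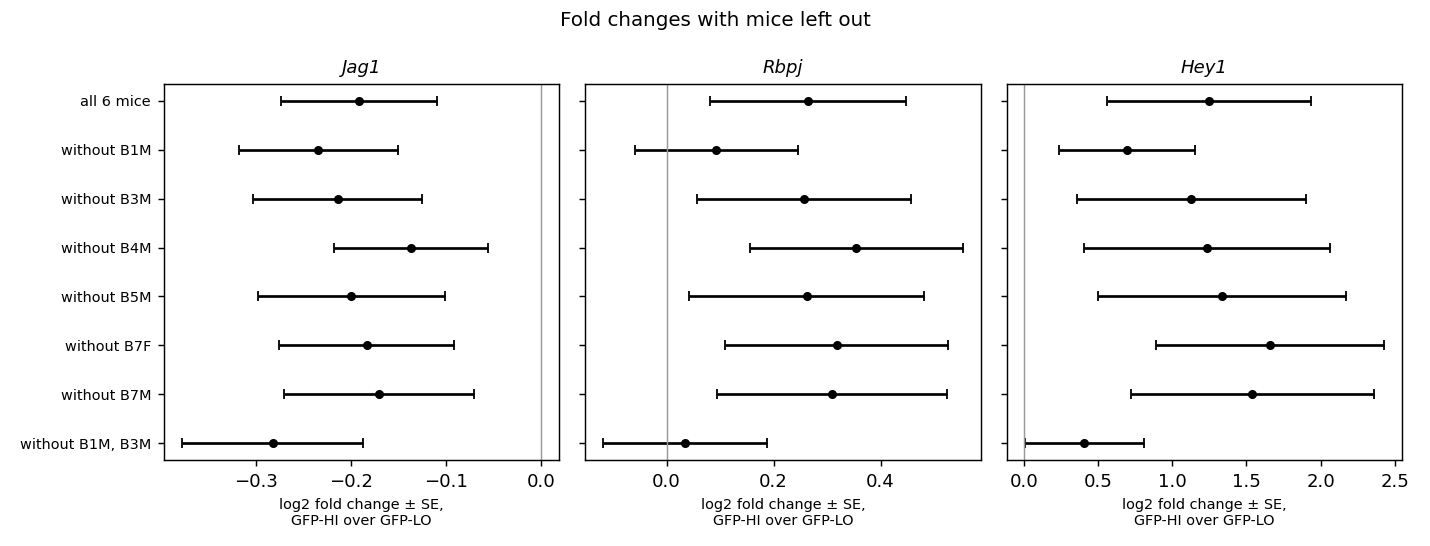
Log2 fold change of GFP-HI over GFP-LO with its SE (bars) for Jag1, Rbpj and Hey1, with all 6 mice at the top and with each mouse, or mice B1M and B3M together, left out below, on axes that differ between panels. Hey1 was 1.25 with all mice and 0.69 without B1M, Rbpj 0.26 and 0.09, and Jag1 stayed below 0 in each fit shown.

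Numb (chr12:83794034-83921934, minus strand), the endocytic adaptor that restrains Notch receptors, ran from 13.1 through 32.5 to 38.5 CPM in GFP-HI libraries, against 23.1, 28.5 and 35.1 CPM in GFP-LO libraries. The GFP-HI library of B3M was the lowest of the 12, and the GFP-HI library was the higher in 4 of 6 mice. The log2 fold change was 0.01 ± 0.17 (95% interval -0.35 to 0.37), with an adjusted p of 0.992 by edgeR.

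**Figure D3:**
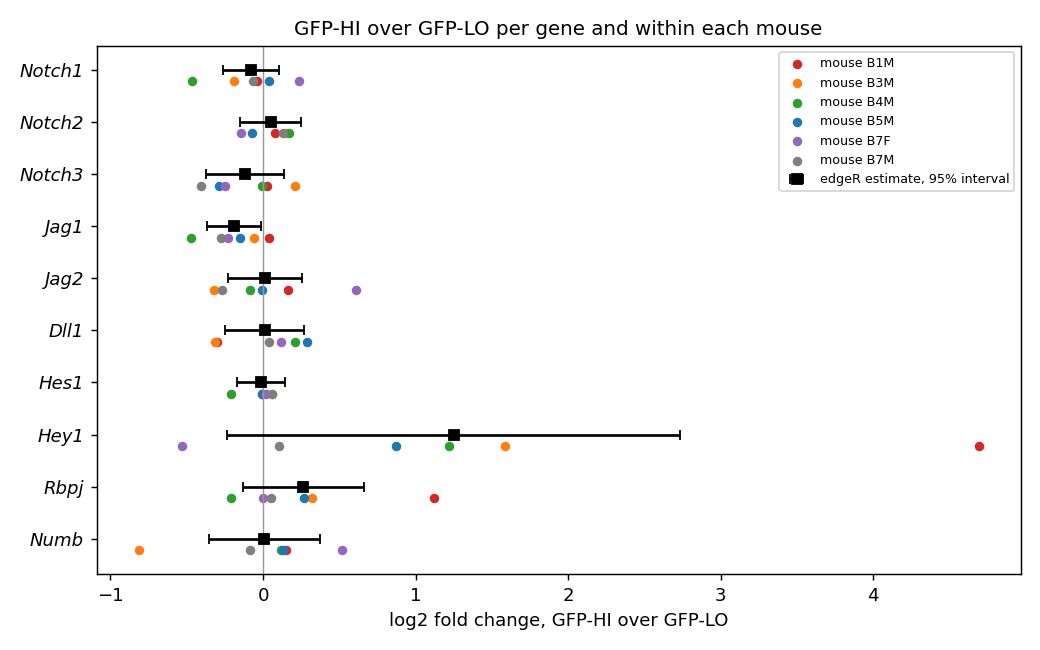
Log2 fold change of GFP-HI over GFP-LO for each Notch gene, with the edgeR estimate, its 95% interval and the 6 within-mouse log2 differences as points. The 10 intervals cover 0 except that of Jag1 (-0.37 to -0.01), and the widest belongs to Hey1 (-0.24 to 2.74), whose B1M difference was 4.69.

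Levels between genes were compared as CPM per kilobase of exonic length. Averaged over the 12 libraries, the order ran from Hes1 at 103 CPM per kb, through Jag2 at 30.2, Notch1 at 28.1, Jag1 at 26.6, Dll1 at 14.4, Numb at 7.85, Notch2 at 6.36, Notch3 at 5.90 and Rbpj at 3.99, to Hey1 at 1.52. Hes1 exceeded the next gene 3.42-fold and lay at the 96.4th percentile of tested genes, while Hey1 lay at the 13.7th. In all 12 libraries Hes1 was above Jag2, Jag1 above Dll1, Dll1 above Numb, and Rbpj above Hey1. Jag2 was above Notch1 in 7 of 12 libraries, Notch1 above Jag1 in 8, Numb above Notch2 in 10, Notch2 above Notch3 in 6 and Notch3 above Rbpj in 9, so these neighbours did not differ beyond their spread. Hes1 averaged 102.8 ± 12.3 CPM per kb in GFP-HI, against 103.7 ± 10.1 CPM per kb in GFP-LO cells, and Hey1 2.10 ± 1.05 CPM per kb in GFP-HI, against 0.932 ± 0.633 CPM per kb in GFP-LO cells (SD, n = 6 each).

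**Figure D4:**
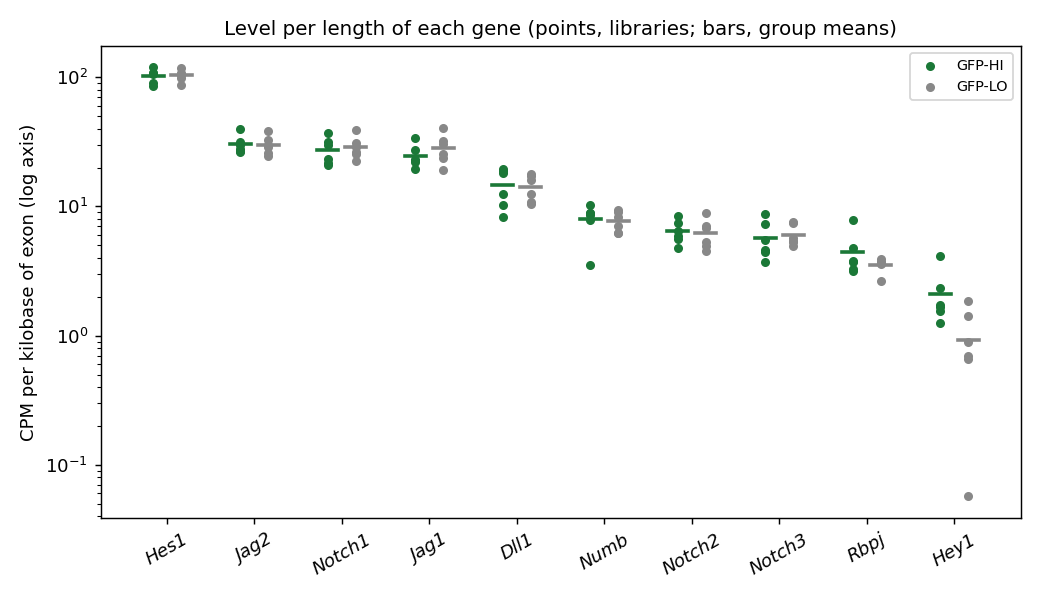
Level of the 10 Notch genes in CPM per kilobase of exon (log axis), in order of their mean, with GFP-HI before GFP-LO 1 point for each of the 6 libraries of a fraction and bars at the group means. Hes1 stands above the other 9 at 103 CPM per kb and Hey1 lies lowest at 1.52 CPM per kb.

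The SD of the mouse means of log2 CPM exceeded that of the halved within-mouse differences for 8 of 10 genes. Jag2 and Hey1 were the exceptions. The halved differences are the part of the spread that lies inside a mouse, but mouse means carry some of that part too. The excess alone therefore does not show, for each gene, more variation between mice than within them. The share of all tested genes with such an excess was not counted. For Notch2 the SD of mouse means was 0.329 and that of the halved differences 0.0653. For Dll1 they were 0.419 and 0.128, and for Rbpj 0.293 and 0.232. Mouse B7M had the highest mean of Notch1, Jag1, Jag2 and Dll1 and the lowest of Notch3. The 71-day mouse B7F lay above the 5 mice of 49 days for Hes1, at a mean of 7.43 log2 CPM against 7.01 to 7.29, and for Hey1, at 1.85 against 0.876 to 1.81, and inside their range for the other 8 genes. Only 1 mouse had that age, so age and animal cannot be told apart.

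The wider pathway was read through 83 genes in 8 role lists that include the 10. Of the 69 that passed the filter, 0 were called higher and 0 lower, 32 log2 fold changes were above 0 and 37 below, and the median was -0.02. Over all tested genes 46.9% were above 0 and the median was also -0.02, so the counts of signs below are to be read beside that share. An unadjusted p under 0.05 was reached by 6 of 69 (8.70%), against 7.24% of all tested genes. Without the 10 genes, 26 of 59 were above 0 and 33 below, with 5 (8.47%) under that mark and a median of -0.04.

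Receptors numbered 4 of 4 tested, with 2 log2 fold changes above 0 and 2 below. Ligands numbered 4 tested of 8, with 3 above 0; Dll3, Dll4, Dlk1 and Dner were too low to test, and Dll4, the Delta-like ligand of sprouting vessels, averaged 0.916 CPM in GFP-HI cells and 1.46 CPM in GFP-LO cells. Dlk2, a Delta-like protein without the ligand's receptor-binding DSL domain, averaged 9.52 CPM in GFP-HI cells and 6.85 CPM in GFP-LO cells, with an adjusted p of 0.936 by edgeR.

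All 17 genes of the nuclear complex were tested, 7 above 0 and 10 below, with a median of -0.10. Its Mastermind coactivators are Maml1, Maml2 and Maml3. Maml1 averaged 26.5 ± 8.04 CPM in GFP-HI cells and 33.2 ± 8.17 CPM in GFP-LO cells, lower in 5 of 6 mice, with a log2 fold change of -0.35 ± 0.15. Maml2 averaged 66.4 ± 12.5 CPM in GFP-HI cells and 52.6 ± 5.94 CPM in GFP-LO cells, higher in 4 of 6 mice, with a log2 fold change of 0.32 ± 0.13. Their unadjusted p values were 0.0297 and 0.0255, and their adjusted p values 0.639 and 0.614 in edgeR; the difference between them was not tested. Maml3 had a log2 fold change of -0.12 ± 0.13 and an adjusted p of 0.862. The most abundant per length in this list were Ctbp1, a corepressor, and Snw1, which joins the RBPJ complex, with log2 fold changes of 0.01 and 0.07.

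Of the HES and HEY list, 4 of 10 were tested, 1 above 0 and 3 below, and Hes2, Hes3, Hes5, Hes7, Hey2 and Heyl were too low. Nrarp, a Notch target that limits the activated receptor, averaged 35.9 ± 10.6 CPM in GFP-HI cells and 37.9 ± 6.47 CPM in GFP-LO cells, with a log2 fold change of -0.13. Hes6 had a log2 fold change of -0.25 and an adjusted p of 0.943 by edgeR.

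The 10 genes of the proteases that cut the receptor were all tested, 4 above 0 and 6 below, with a median of -0.03. Psenen and Ncstn, subunits of γ-secretase, had log2 fold changes of 0.24 and 0.20, with adjusted p values of 0.825 and 0.800 in edgeR. Among glycosylation genes, whose enzymes put sugars on the receptor's repeats, 4 of 5 were tested, 1 above 0 and 3 below, with a median of -0.27. Poglut1, an O-glucosyltransferase, averaged 20.8 ± 3.18 CPM in GFP-HI cells and 25.8 ± 1.91 CPM in GFP-LO cells, lower in 5 of 6 mice, with a log2 fold change of -0.32 ± 0.16, and Lfng, a Fringe enzyme, had -0.29; their adjusted p values were 0.721 and 0.768 in edgeR.

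In the list for ubiquitin and endocytosis, 17 of 18 were tested, 11 above 0 and 6 below, with a median of 0.02. Neurl1b, an E3 ligase that acts on ligands, averaged 30.4 ± 9.13 CPM in GFP-HI cells and 22.1 ± 7.92 CPM in GFP-LO cells, higher in 5 of 6 mice, with a log2 fold change of 0.48 ± 0.19. Itch, an E3 ligase of Notch, averaged 54.0 ± 9.95 CPM in GFP-HI cells and 64.8 ± 7.03 CPM in GFP-LO cells, lower in 5 of 6 mice, with a log2 fold change of -0.27 ± 0.12. Their adjusted p values were 0.601 and 0.664 in edgeR. The most abundant of the list per length were the ligases Nedd4, at a log2 fold change of 0.05, and Mib1, which acts on ligands, at 0.02.

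Keratinocyte genes known to lie downstream of Notch gave 9 tested of 11, with 3 above 0 and 6 below and a median of -0.04; Krt1 and Ivl were too low. Ccnd1, the D-type cyclin of the G1 phase, came nearest to a call: it averaged 55.1 ± 10.1 CPM in GFP-HI cells and 74.2 ± 15.2 CPM in GFP-LO cells and was lower in GFP-HI in 6 of 6 mice. Its log2 fold change was -0.43 ± 0.10, with an adjusted p of 0.0936 by edgeR. Over the 14 alternative settings that value ran from 0.0212 with DESeq2 to 0.999 without the mouse block. In edgeR it was 0.0390 without the filter, 0.0456 without mouse B1M and 0.0285 without mice B1M and B3M. It was 0.0697 with upper-quartile factors, 0.0941 with RLE factors, 0.0625 with 10 counts required throughout, and 0.211 without Rn45s and histone genes. With any other single mouse left out it ran from 0.17 (B4M) to 0.501 (B7M). Trp63, the master regulator of the basal layer, and Myc had log2 fold changes of -0.05 and -0.04, and Grhl3, a factor of barrier formation, had 0.23.

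**Figure D5:**
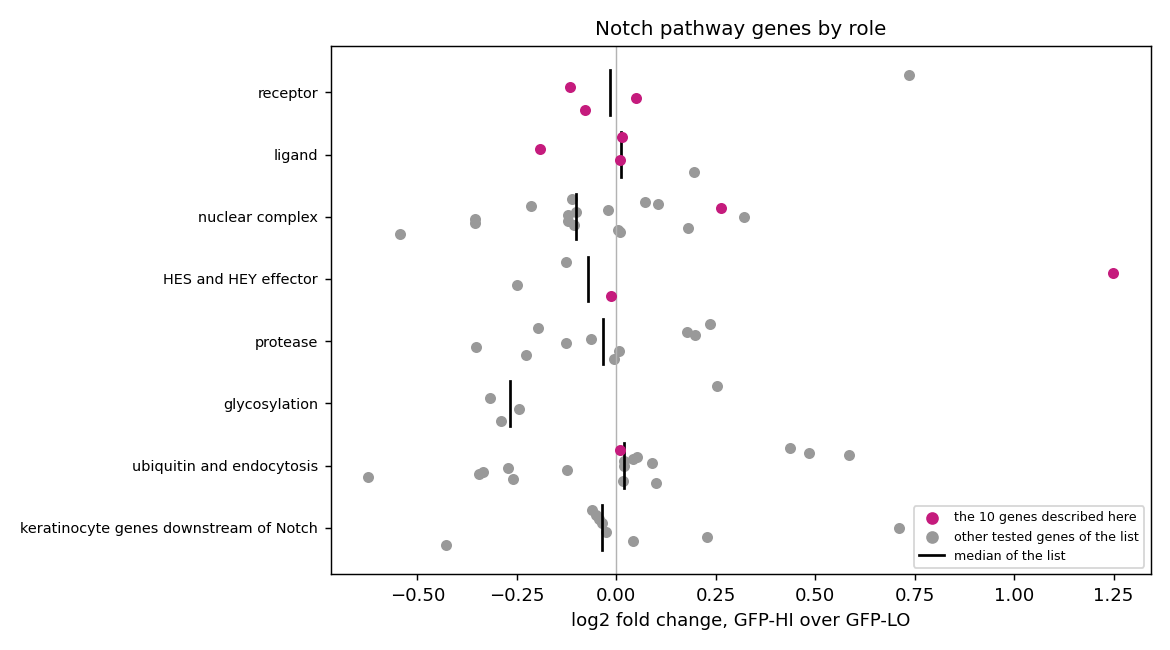
Log2 fold change of GFP-HI over GFP-LO for the 69 tested genes of the 8 Notch role lists, 1 point per gene, with the 10 Notch genes marked and black bars at the list medians. The points of every list lie on both sides of 0, and the median of the 69 is -0.02.

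The genes whose 6 within-mouse differences lay nearest to those of each Notch gene were named, with likeness measured as the root-mean-square distance in log2 units over 6 mice among 9562 or 9563 genes of at least 5 mean CPM. They were Cic for Notch1 (0.0597), Gpi1 for Notch2 (0.0667), Sltm for Notch3 (0.103), Taf2 for Jag1 (0.0783), Sppl2b for Jag2 (0.0862), Mcl1 for Dll1 (0.0533), Hipk3 for Hes1 (0.0557), Wdr41 for Rbpj (0.116) and Cdc7 for Numb (0.0866). The distance from Hey1 to its nearest gene, Ism1, was 0.711, but this measure grows with a gene's own spread, and the SD of the within-mouse differences was 1.82 for Hey1 against 0.0992 to 0.464 for the other 9. Within the 10, the nearest pair was Notch1 and Hes1, at 0.177, and Hes1 ranked 167th among the genes nearest to Notch1. Hes1 had the smallest SD of the 10, 0.0992, and was also the nearest of them to Notch2, Jag1 and Dll1. Its nearness to Notch1 therefore cannot be read as a shared change.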

How the data were processed

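The authors deposited 1 table of raw read counts per gene, with exon positions, for 12 libraries, and every value was a whole number. Tools named in the submitters' processing notes are featureCounts, bcl2fastq 2.20.0, R 3.4.1, DESeq2 and FastQC, and the builds named are GRCm38 and mm10. No aligner, annotation version, strandedness or rule for multi-mapping reads is given in the sources used here. Library preparation used NuGEN SoLo, per the labels' protocols. No columns were left out.

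Genes were kept with edgeR's filterByExpr (minimum count 10, minimum total 15), scaled by TMM and tested by the robust quasi-likelihood test of edgeR 4.0.16 in R 4.3.3, two-sided, with mouse as a block and Benjamini-Hochberg adjustment over all tested genes at 0.05. log2 CPM used a prior count of 2. The SE was the fold change divided by the root of F, and intervals are 95%. Samples pair by animal code: within-mouse correlations of deviations ran from 0.225 to 0.494. The highest correlation with the opposite fraction of another mouse ran from 0.0435 to 0.257 and was below the within-mouse value for each mouse. Alternatives within edgeR were RLE or upper-quartile factors in place of TMM, removal of Rn45s and histone genes, other filters, no block and leaving out mice. A further alternative was the test of DESeq2 1.42.0 with mouse as a block. The script was tested on simulated data. Genes were named by rule: all 10, and in each role list the 2 highest per length and the 2 with the smallest p; 1 gene that the rule names is not reported here. The members, role lists and marker lists were chosen with earlier results of these data known.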

Additional observations from a re-analysis of the deposited data

Results flagged for a closer look

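Of 20 sets of 6 libraries, 1 set per Notch gene and fraction, 4 held a library set apart from the other 5 by Dixon's criterion, which chance meets in about 1 in 20 sets. Hey1 was at 9.09 CPM in the GFP-HI library of mouse B1M, against 2.76 to 5.12 CPM in the other 5 GFP-HI libraries. Rbpj was at 45.9 CPM in the same library, against 18.4 to 27.6 CPM, and at 15.3 CPM in the GFP-LO library of mouse B3M, against 21.0 to 22.9 CPM in the other 5 GFP-LO libraries. Numb was at 13.1 CPM in the GFP-HI library of mouse B3M, against 29.3 to 38.5 CPM. Gene detection was lowest in these same GFP-HI libraries, that of B1M and that of B3M. The GFP-LO library of B3M, which held the low Rbpj value, had 14872 genes detected, against 13101 in that of B1M. The part of gene detection in the 4 values was not tested.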

How the results depend on the processing

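No Notch gene with an adjusted p was called under any of the 14 alternatives, where the smallest adjusted p of the 10 ran from 0.215 (without mice B1M and B3M) to 0.999 (no block). Across all genes, 55 were called higher and 7 lower. Without Rn45s and histone genes the counts were 6 and 3, without the filter 127 and 45, with DESeq2 120 and 23, and without B1M and B3M 117 and 34; requiring 10 counts in all 12 libraries gave 12 lower. Without the mouse block edgeR called 0 higher and 0 lower, with 440 genes at an unadjusted p under 0.05. Leaving out 1 mouse gave 29 (B3M) to 81 (B1M) higher and 2 (B4M) to 14 (B1M) lower. In the role lists, 1 gene was called higher (Krt10) and 1 lower (Ccnd1) without the filter, and 1 lower (Ccnd1) with DESeq2 and without B1M and B3M. With 1 mouse left out, 0 to 1 role-list genes were called lower, Ccnd1 without B1M being the 1. The cause was not tested.

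Log2 fold changes near 0 turned sign: with upper-quartile factors Jag2 was -0.014, Dll1 -0.016 and Numb -0.016, and without the filter -0.00063, -0.0045 and -0.0041. With 1 mouse left out, Jag2 ran from -0.10 to 0.085, Dll1 from -0.048 to 0.077, Hes1 from -0.025 to 0.022 and Numb from -0.092 to 0.17. Hey1 ran from 0.69 without B1M to 1.66 and was not tested when 10 counts were required throughout. DESeq2 gave it no adjusted p (unadjusted 0.0335), and without the filter its unadjusted p was 0.0253 and its adjusted p 0.726 (0.712 to 0.999 over its alternatives). By CPM without division by length, 2 of 10 genes kept their place in the order of levels. Depth limits Hey1, which had 1 to 74 counts in a library.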

Other observations

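Dtx3, a member of the Deltex family, was named after its values were seen, because it was lower in GFP-HI in 6 of 6 mice. It averaged 3.79 ± 1.67 CPM in GFP-HI cells and 5.55 ± 1.52 CPM in GFP-LO cells (SD, n = 6 each), with a log2 fold change of -0.62 ± 0.37 and an adjusted p of 0.771 by edgeR, so it did not pass the test. Krt10, a differentiation keratin, was also named after its values were seen: it ran from 13.4 to 321 CPM in GFP-HI libraries and from 13.3 to 160 CPM in GFP-LO libraries, with an adjusted p of 0.859 by edgeR.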
